A study of Mus musculus with 6 samples.

Results

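Interferon-stimulated genes are the antiviral and immune genes that cells switch on after they sense interferon. A set of 34 of them was looked up by symbol among the 32285 genes counted in single cells from mouse melanomas. The files held 33 of the 34, and Mx1 was not analysed here. Their levels are described by cell type and by genotype and antibody treatment.

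The tumours grew from YUMM1.7, a mouse melanoma cell line, injected under the skin of female mice that were 8 weeks old (protocol strain C57BL/6J, strain label C57BL/6JRccHsd). Nr3c1, the glucocorticoid receptor gene, was floxed in all mice. The floxed mice (GRf/f) had no further allele, and the LysM-Cre mice (GRf/f-LysMCre) also carried Cre recombinase under control of Lyz2 (LysM), a gene active in myeloid cells. Mice of both genotypes received anti-PD-1, an antibody that blocks a checkpoint receptor of T cells, or an isotype control antibody at 12.5 mg/kg, which made 4 conditions of 4 mice. Tumours were collected on day 28. Each mouse got its own hashtag antibody, 8 mice were mixed into each of 2 pools (E5 and E6, with 2 mice of every condition in each), and CD45+ cells were sorted. Cre can act on the receptor gene only in cells that use, or descend from cells that used, the Lyz2 promoter. Mouse numbers follow pool and hashtag and serve as names alone.

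Type I interferons (Ifna and Ifnb genes) signal through the kinases JAK1 and TYK2 to a complex that includes STAT2 and IRF9 and binds the interferon-stimulated response element (ISRE). Interferon-gamma (Ifng), made by T and NK cells, acts through JAK1 and JAK2 and a promoter element called the gamma-activated site (GAS), and IRF1 passes the signal on to further genes. Many target genes respond to both kinds of interferon. IFIT and OAS genes are best known as type I targets, whereas guanylate-binding proteins (GBPs) and immunity-related GTPases (IRGs) are classic targets of interferon-gamma. In tumours such genes are used as a readout of interferon reaching each cell type.

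Promoters of 27 of the 34 genes were in RefSeq (GRCm38.p6), each as a window of 300 bases (250 before the gene start and 50 after). The letters GAAANNGAAA, the core of the ISRE, were present on either strand in 18 of these 27, against 3.44% of all 32851 promoters. The letters TTCNNNGAA, the core of the GAS and its own reverse complement, were present in 7 of 27, against 8.30% of all promoters. A match to these letters is a description and not a measured binding site, and the motifs may overlap, as they do in Bst2. The 200 bases before the gene start are shown for 6 members that stand for the groups discussed in the results, with the motif matches in capitals.

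Ifit3 (IFIT family) and Isg15 (a ubiquitin-like modifier) hold 2 and 3 ISRE cores, and Bst2 (tetherin) holds a GAS core that runs into 2 ISRE cores.

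Ifit3, chr19:34583329-34583528, plus strand: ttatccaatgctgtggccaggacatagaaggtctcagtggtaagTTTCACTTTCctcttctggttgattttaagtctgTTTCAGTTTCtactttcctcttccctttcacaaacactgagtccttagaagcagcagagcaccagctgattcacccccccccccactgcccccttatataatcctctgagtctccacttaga

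Isg15, chr4:156200819-156201018, minus strand: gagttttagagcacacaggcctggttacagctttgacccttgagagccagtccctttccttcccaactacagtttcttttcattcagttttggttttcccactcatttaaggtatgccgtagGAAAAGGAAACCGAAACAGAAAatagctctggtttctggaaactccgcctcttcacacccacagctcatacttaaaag

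Bst2, chr8:71537473-71537672, minus strand: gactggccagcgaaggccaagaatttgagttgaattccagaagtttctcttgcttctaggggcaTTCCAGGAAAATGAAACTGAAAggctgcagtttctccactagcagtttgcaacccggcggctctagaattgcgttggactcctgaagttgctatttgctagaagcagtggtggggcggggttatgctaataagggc

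Gbp2 and Gbp5, guanylate-binding proteins whose floxed monocyte groups did not overlap, hold 1 ISRE core each, and Gbp5 also has a GAS core in this stretch. Irf1, the transcription factor, has a GAS core and no ISRE core in the window.

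Gbp2, chr3:142620463-142620662, plus strand: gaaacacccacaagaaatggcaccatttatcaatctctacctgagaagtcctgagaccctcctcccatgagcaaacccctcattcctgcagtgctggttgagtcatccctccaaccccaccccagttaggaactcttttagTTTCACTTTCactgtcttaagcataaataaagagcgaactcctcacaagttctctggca

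Gbp5, chr3:142496734-142496933, plus strand: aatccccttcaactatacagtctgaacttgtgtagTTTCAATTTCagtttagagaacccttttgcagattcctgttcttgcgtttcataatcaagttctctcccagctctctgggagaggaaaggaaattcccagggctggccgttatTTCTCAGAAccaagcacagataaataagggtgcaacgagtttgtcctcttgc

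Irf1, chr11:53769814-53770013, plus strand: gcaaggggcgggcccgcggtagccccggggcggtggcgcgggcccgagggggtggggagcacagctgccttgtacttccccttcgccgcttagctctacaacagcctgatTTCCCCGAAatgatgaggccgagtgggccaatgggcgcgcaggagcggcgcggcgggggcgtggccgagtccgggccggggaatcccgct

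The pools held 15301 and 16614 barcodes, with 176338827 and 221763950 unique molecular identifiers (UMIs, each standing for 1 counted RNA molecule). Of these barcodes 805 appeared in both pools, and the copy with fewer UMIs was left out. After filters and hashtag calling 17198 cells belonged to 1 mouse each, with a range of 137 to 3025 cells per mouse. The smallest number belonged to floxed anti-PD-1 mouse 2, which had 50 macrophages and 18 monocytes and so entered the macrophage comparisons but not those of monocytes or CD8 T cells. Clusters were named from marker genes and are called monocytes (3562 cells), CD8 T cells (2692), macrophages (2277), neutrophils (1741), NK cells (1131), fibroblasts (962, despite the CD45 sort), regulatory T cells (757) and cDC2 (552, conventional dendritic cells). Cluster 2 (1395 cells, led by H2-Ab1, Ciita and Cd74), cluster 13 (608, led by Cd4, Il7r and Tcf7) and cluster 14 (584, led by Nos2, Inhba and Arg1) kept a number because their markers did not settle a name. The names are marker-based, so monocytes are monocyte-like cells, and so on. CD8 T cells are a mixed class. Cd8a was detected in 68.4%, 85.7%, 52.1% and 70.2% of cells of its clusters 1, 11, 17 and 26, and Trdc, a gamma-delta T cell gene, in 10.3%, 0.287%, 12.2% and 10.5%. In 5 of 6 other cell calls, 688 to 832 cells formed a separate innate-like T class, and over the 6 calls the CD8 T cells numbered 1756 to 1976. Markers of other classes were counted in every class: monocyte marker genes summed to 1603 to 3122 CPM (counts scaled to a common library total) in CD8 T cells and to 7278 to 11708 CPM in monocytes.

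Nr3c1 was checked first. It was at 62.5 ± 13.3 CPM in macrophages of floxed mice and 35.7 ± 18.9 in those of LysM-Cre mice (SD, n = 8 each), and at 63.8 ± 10.6 (n = 7) and 43.9 ± 13.8 CPM (n = 8) in monocytes. CD8 T cells had 84.1 ± 17.3 and 81.6 ± 14.2 CPM. The reads come from the 3′ end of the RNA, so these levels do not test whether the gene was cut.

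The members were at their highest summed level in monocytes. Counts were summed per mouse and cell class and divided by the class total, and classes with at least 20 cells in a mouse were used. The 33 members together made up 8461 ± 2719 CPM in monocytes (SD, n = 15 mice), 6377 ± 5457 in neutrophils (n = 15), 5933 ± 1646 in regulatory T cells (n = 9) and 5536 ± 1159 in cluster 2 (n = 15). Cluster 13 had 4456 ± 1757 (n = 12), cDC2 4144 ± 1731 (n = 11), cluster 14 3135 ± 1275 (n = 7) and CD8 T cells 3041 ± 813 CPM (n = 15). Fibroblasts had 2676 ± 1187 (n = 14), macrophages 2488 ± 1116 (n = 16), NK cells 1976 ± 604 (n = 14) and mast cells or basophils 1393 ± 1015 CPM (n = 3). The neutrophil mean includes 1 mouse at 25110 CPM, floxed anti-PD-1 mouse 3, and is 5039 ± 1774 CPM (n = 14) without it, below regulatory T cells and cluster 2. The regulatory T cells came from 8 isotype mice and 1 anti-PD-1 mouse. Within a mouse, monocytes were above macrophages in 15 of 15 mice, above CD8 T cells in 14 of 15 and above cluster 2 in 13 of 15. Monocytes were above neutrophils in 11 of 14 mice, and regulatory T cells above CD8 T cells in 9 of 9. CD8 T cells, fibroblasts and macrophages were not ordered beyond the spread between mice: CD8 T cells were above macrophages in 10 of 15 and above fibroblasts in 8 of 14 mice. In these sums, fewer cells that respond and less RNA per responding cell cannot be told apart.

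Single cells gave a related order with 1 addition. Per 10000 UMIs of a cell, the median was 57.0 member UMIs in monocytes (10th to 90th percentile 8.44 to 215), 48.8 in cluster 2, 45.4 in regulatory T cells, 24.1 in neutrophils (5.42 to 131), 21.2 in CD8 T cells and 13.9 in macrophages (5.07 to 69.4). Plasmacytoid dendritic cells, the cell type known for making type I interferon, had 50.7 (35.8 to 86.8) but were only 82 cells and were not summed per mouse. The range was wide within monocytes and neutrophils, and also within fibroblasts (2.35 to 82.4) and cDC2 (5.08 to 136). That of plasmacytoid dendritic cells was narrow. Cells had a median of 2890 UMIs in neutrophils and 10683 in monocytes, and the part of depth in these ranges was not tested.

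**Figure D1:**
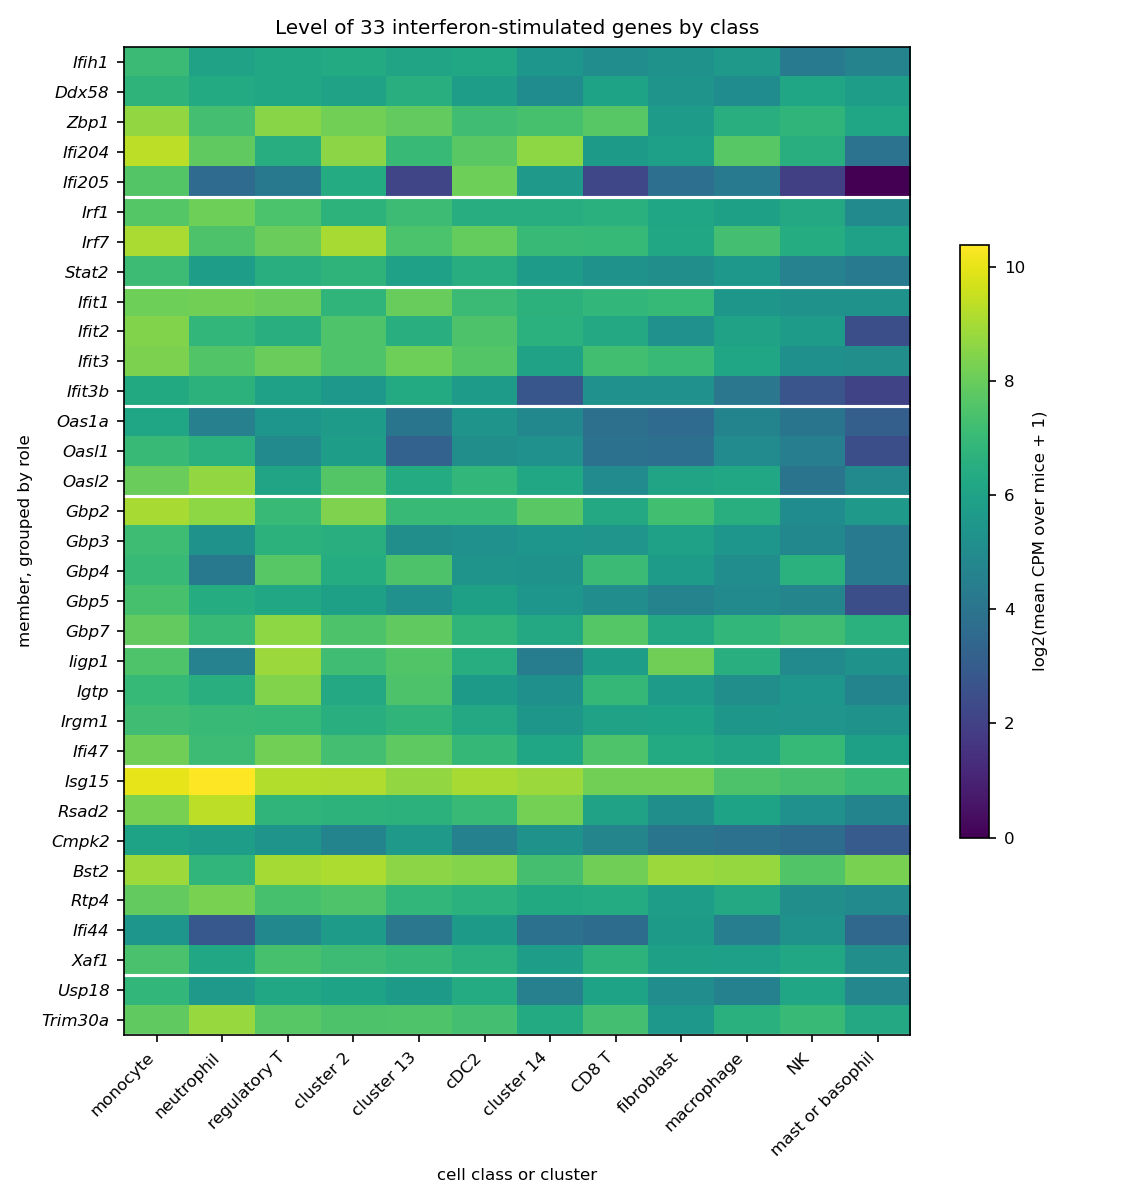
Mean level of each of the 33 members in 12 cell classes or clusters, as log2(mean CPM + 1) over mice, with genes grouped by role. Monocytes hold the highest level for 17 members, neutrophils for 8 and regulatory T cells for 5.

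The highest means fell to 5 of the 12 classes. Monocytes had the highest mean of 17 members, among them the DNA sensor gene Ifi204 (662 ± 196 CPM), the transcription factor Irf7, which amplifies type I interferon production (535 ± 192, next to 516 ± 153 in cluster 2), Gbp2 (520 ± 227), Zbp1, a sensor of Z-form nucleic acids (415 ± 128), and Ifit3, an RNA-binding antiviral protein (328 ± 167). Neutrophils led in 8 members, which were Isg15, Ifit1, Ifit3b, Rsad2, Oasl2, Irf1, Rtp4 and Trim30a. Trim30a, a feedback inhibitor of innate signalling, was at 436 ± 132 CPM in neutrophils and 233 ± 65.2 in monocytes, and Oasl2 at 421 ± 218 and 258 ± 82.1 CPM. Isg15 (1343 ± 1123 against 1027 ± 440 in monocytes) and Rsad2, the antiviral enzyme viperin (656 ± 622 against 307 ± 138), overlapped widely, and 1 mouse described later raises the neutrophil means. So did Ifit1 (291 ± 269 against 276 ± 112) and Irf1 (276 ± 280 against 198 ± 96.0). Ifit3b overlapped with cluster 13 (100 ± 98.1 against 81.1 ± 53.2 CPM). The neutrophil lead in these members lies within the spread between mice.

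Regulatory T cells held the highest mean of 5 of the 9 GBPs and IRGs, and monocytes that of the other 4 (Gbp2, Gbp3, Gbp5 and Irgm1). Gbp4 (205 ± 64.0 CPM), Gbp7 (390 ± 47.7), Iigp1 (454 ± 142), Igtp (339 ± 88.7) and Ifi47 (286 ± 78.7, beside 284 ± 92.6 in monocytes) were highest in regulatory T cells, and the last 3 are IRGs, which attack the vacuoles of intracellular parasites. Igtp was at 121 CPM and Iigp1 at 55.2 CPM in CD8 T cells. Iigp1 was second highest in fibroblasts (281 ± 151 CPM).

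Other members were set apart by a low class. Ifi205, an Ifi200 family gene, was highest in cDC2 (272 ± 105 CPM), next in monocytes (194 ± 76.9), at 3.60 CPM in CD8 T cells, and had 0 counts in mast cells or basophils of all 3 mice. Bst2, the tetherin gene, was highest in cluster 2 (547 ± 107) and lowest in neutrophils (113 ± 59.6), and Gbp4 (17.6 ± 21.0) and Ifi44 (6.26 ± 7.47) were lowest in neutrophils too. Zbp1 and Trim30a were lowest in fibroblasts (51.0 ± 26.2 and 46.0 ± 21.9 CPM). Macrophages were lowest for 1 member, Ddx58 (32.3 ± 15.8), which encodes the RNA sensor RIG-I.

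Within classes the level of the members differed between clusters. Cells were clustered without the members and the listed interferon genes. The cluster levels below pool the cells of all mice, so they carry no spread between mice. Mice weigh unequally in them: floxed isotype mouse 3 gave 580 of the 1833 cells of monocyte cluster 0. Monocyte cluster 7 (869 cells, led by Cxcl9, Ifi205 and Cxcl10) had 16239 CPM of members, against 7709, 2848 and 2673 in monocyte clusters 0, 10 and 20. Isg15 was at 2255, Irf7 at 1045 and Gbp2 at 973 CPM in cluster 7. The share of monocytes in cluster 7 ran from 4.52% to 25.3% in LysM-Cre and from 18.4% to 31.8% in floxed mice given isotype. With anti-PD-1 it ran from 24.1% to 45.9% in floxed mice 1, 3 and 4 and from 10.2% to 46.8% in LysM-Cre mice. Floxed anti-PD-1 mouse 2 had 0 of its 18 monocytes in cluster 7. Macrophage cluster 15 had 3952 CPM, against 2115 and 2163 in clusters 4 and 12, and its share of macrophages varied from 1.49% to 71.3% between mice. CD8 T cluster 1 had 4448 CPM, against 2157 and 2111 in clusters 11 and 17, and the small cluster 26 (57 cells) had 6045 CPM. Cluster 26 had Ifi205 at 63.5 and Ifi204 at 386 CPM. In clusters 1, 11 and 17 these were at 1.26 to 2.74 and 35.5 to 61.3 CPM. Dpep2 and Spon1 were among the leading genes of both cluster 26 and cluster 2. Whether cluster 26 holds RNA of myeloid cells was not tested, so its level is not read as that of CD8 T cells. Neutrophil cluster 8 had 7450 and cluster 6 had 3661 CPM.

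The genes whose levels were most like those of the members over 148 mouse-by-class points were Rnf213 (Spearman 0.83), Daxx (0.80), Tor1aip1, Znfx1 and Ogfr (0.77 each), out of 4132 genes compared. The points share mice, pools and class depth, so the values are a description.

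Some mice were high or low in nearly every cell class at once. The mean log2(CPM + 1) of the members was compared with its class mean over mice in 7 classes. Floxed isotype mouse 1 was above it in 7 of 7 classes (median 0.69) and LysM-Cre isotype mouse 2 in 7 of 7 (median 0.94). LysM-Cre isotype mouse 3 was above it in 0 of 7 (median −0.48) and LysM-Cre isotype mouse 4 in 1 of 7 (median −0.71). Among the mice with all 7 classes, LysM-Cre isotype mice thus had both the highest and the lowest median, and the high one was in pool E5 whereas the low 2 were in pool E6. Floxed anti-PD-1 mouse 2, with 2 of the 7 classes, was lower still (median −2.06).

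**Figure D2:**
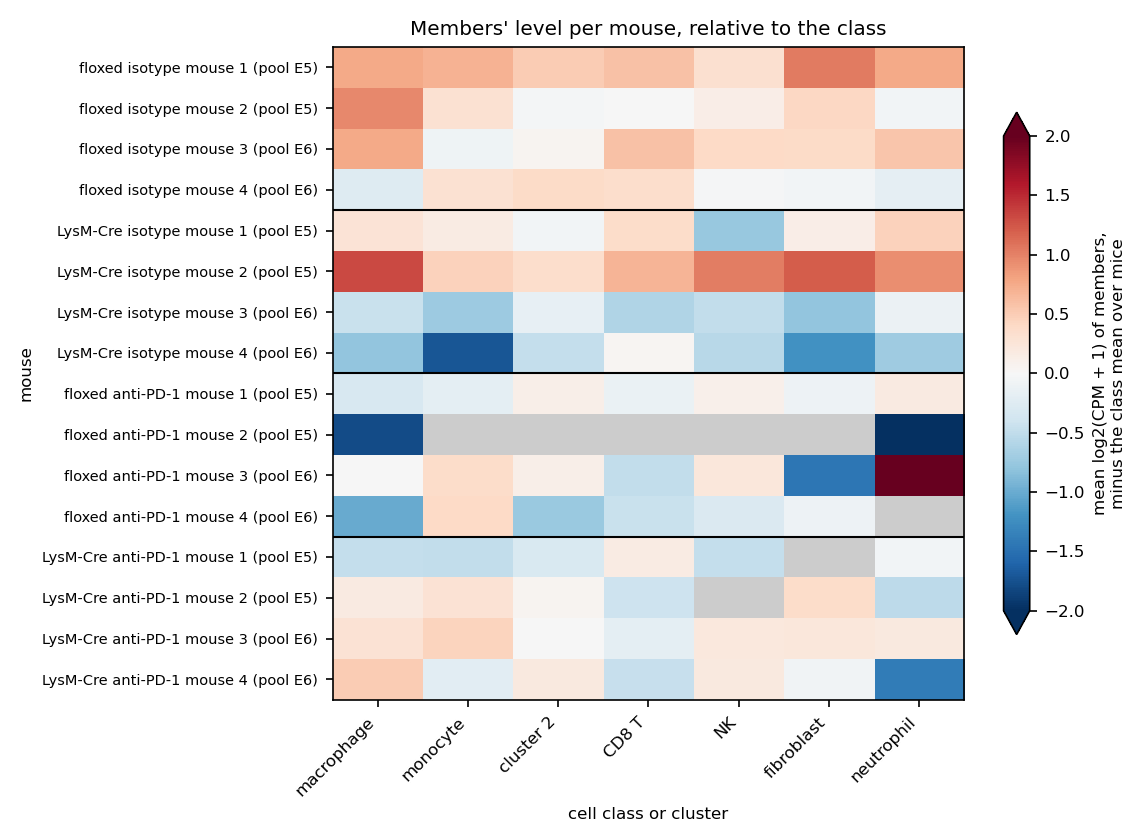
Mean log2(CPM + 1) of the members in each of 16 mice minus the mean of the class over mice, in 7 classes; grey marks fewer than 20 cells. LysM-Cre isotype mouse 2 is red in 7 of 7 classes, and LysM-Cre isotype mouse 3 is blue in 7 of 7.

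For the comparisons between conditions, the summed counts of each class were fitted with edgeR (quasi-likelihood F test, pool as covariate, Benjamini-Hochberg adjustment over all genes of the class). A log2 change is given as anti-PD-1 minus isotype or LysM-Cre minus floxed, with its standard error (SE). In 39 comparisons over 10 classes, 0 members passed an adjusted p of 0.05. In 34 of the comparisons 0% of all genes passed either. The exceptions were anti-PD-1 against isotype in LysM-Cre CD8 T cells (0.0126% of genes called), in floxed cluster 2 (0.0431%) and in floxed fibroblasts (0.0573%), genotype with anti-PD-1 in cluster 2 (0.0144%), and genotype with isotype in regulatory T cells (0.0156%). What follows gives levels and fitted values for comparisons in which no single member passed. The p-values rest on the spread between mice of 1 experiment.

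The first comparison asks how anti-PD-1 treated and isotype-treated tumours differed in floxed mice. In macrophages, 33 of 33 members had a lower fitted level with anti-PD-1, and the median log2 change was −1.12 beside −0.0097 for all 9589 genes tested, of which 51.2% were lower. EdgeR gave 24 members and 1250 genes an unadjusted p under 0.05, and 0 of either passed after adjustment. Every anti-PD-1 mouse was below every isotype mouse for 10 members, namely Ifi204, Ifih1, Oasl2, Usp18, Trim30a, Irf7, Bst2, Cmpk2, Ifit3 and Ifit3b, and for 5.6% of all genes. The members together had 3503, 3863, 3572 and 1883 CPM in isotype mice 1 to 4, and 1799, 906, 2238 and 1204 CPM in anti-PD-1 mice 1 to 4. Only isotype mouse 4 lay within the range of the anti-PD-1 mice.

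Among sensors, Ifi204 was at 271, 278, 300 and 173 CPM with isotype and 148, 121, 135 and 140 CPM with anti-PD-1 (log2 −0.86, SE 0.28, edgeR adjusted p = 0.22). All 4 treated mice lay below all 4 isotype mice, by a narrow gap to isotype mouse 4. Ifi205 was at 45.9, 52.0, 45.5 and 9.09 CPM against 6.03, 1.18, 21.4 and 3.13 CPM (−2.22, SE 0.73, adjusted p = 0.22), and here mouse 4 of the isotype group overlapped. Ifih1, the RNA sensor MDA5, had a change of −1.12 (SE 0.32, adjusted p = 0.20) and Zbp1 of −1.26 (SE 0.42, adjusted p = 0.23). All 5 sensors were lower, with a median of −1.15.

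Among transcription factors, Irf7 was at 244, 232, 242 and 105 CPM with isotype and 61.0, 17.7, 86.3 and 48.5 CPM with anti-PD-1 (−1.85, SE 0.56, adjusted p = 0.21). The groups did not overlap, and isotype mouse 4 was again the lowest of its group. Stat2 had a change of −1.16 (SE 0.33, adjusted p = 0.20) and Irf1 of −0.58 (SE 0.35, adjusted p = 0.51). Irf1 levels overlapped between the groups, at 48.5 to 94.5 CPM with isotype and 30.7 to 69.9 CPM with anti-PD-1.

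The IFIT genes had a median of −1.49. Ifit3 was at 129, 86.3, 78.5 and 43.2 CPM with isotype and 30.8, 2.36, 27.9 and 32.5 CPM with anti-PD-1 (−1.58, SE 0.56, adjusted p = 0.26). Ifit3b, a near copy of Ifit3 with which reads may be shared, was at 32.6, 30.1, 17.7 and 8.34 against 4.69, 0, 4.11 and 5.48 CPM (−2.19, SE 0.62, adjusted p = 0.20). Neither gene overlapped between groups. The 3 OAS genes, whose proteins sense double-stranded RNA or are relatives of those that do, had a median of −1.11, with Oasl2 at −1.42 (SE 0.43, adjusted p = 0.20).

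Other effectors and feedback regulators held the members closest to the threshold. Trim30a was at 123, 155, 146 and 108 CPM with isotype and 64.3, 49.6, 81.4 and 60.2 CPM with anti-PD-1 (−1.0, SE 0.21, adjusted p = 0.085). Bst2 was at 598, 570, 562 and 394 CPM against 304, 248, 390 and 302 CPM (−0.72, SE 0.18, adjusted p = 0.14). In both the groups did not overlap, though for Bst2 the gap was only 394 to 390 CPM. Cmpk2, a mitochondrial nucleotide kinase, was at 22.0, 29.7, 22.0 and 15.2 against 4.02, 1.18, 5.75 and 4.69 CPM (−2.25, SE 0.60, adjusted p = 0.18). Usp18, which removes ISG15 from proteins and dampens the receptor, was at 37.5, 48.4, 40.8 and 18.9 against 10.7, 2.36, 12.3 and 8.61 CPM (−1.93, SE 0.54, adjusted p = 0.20). Isg15 was at 273, 295, 291 and 103 against 115, 28.4, 180 and 70.4 CPM (−1.18, SE 0.57, adjusted p = 0.39) and overlapped through isotype mouse 4.

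The guanylate-binding proteins differed least in these macrophages, with a median of −0.35, and the IRGs had −1.02. Gbp7 was at 117, 155, 177 and 102 CPM with isotype and 133, 95.8, 150 and 63.8 CPM with anti-PD-1 (−0.29, SE 0.27, adjusted p = 0.69). Gbp5 was at 28.4, 44.7, 39.7 and 18.2 against 31.5, 7.09, 55.1 and 7.82 CPM (−0.35, SE 0.56, adjusted p = 0.84). The groups overlapped in both genes, and anti-PD-1 mice 2 and 4 were the low ones.

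**Figure D3:**
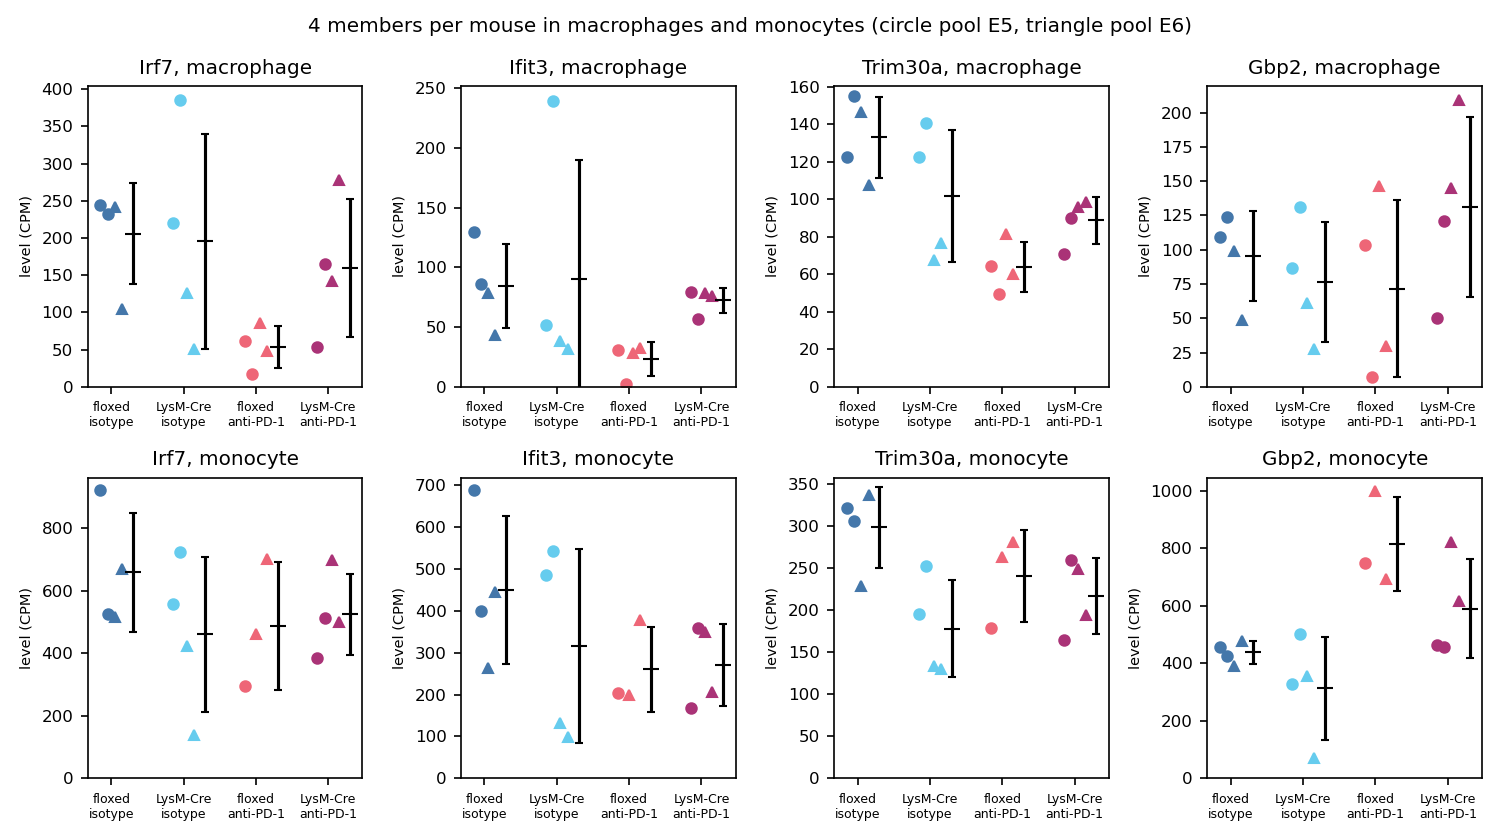
Levels in CPM of Irf7, Ifit3, Trim30a and Gbp2 in each mouse, in macrophages and monocytes, by condition, with the condition mean. Irf7, Ifit3 and Trim30a of the 4 floxed anti-PD-1 mice lie below the 4 floxed isotype mice in macrophages, and Gbp2 of the 3 floxed anti-PD-1 mice lies above the floxed isotype mice in monocytes.

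Other genes of the pathway were lower too in these macrophages. Of 61 further interferon genes tested in macrophages, 58 were lower and 3 higher (median −0.67), 31 had an unadjusted p under 0.05 and 0 passed. Of all 9589 genes, 51.2% were lower and 1250 had an unadjusted p under 0.05 in edgeR. These genes were chosen with earlier results of these data known and were read in the same mice, so they are no independent support. The list holds receptors and kinases (8 of 8 lower, median −0.28), inhibitors, sensors and 32 other targets (32 of 32 lower, median −0.96). Slfn5, a Schlafen gene, had −1.51 (SE 0.32, edgeR adjusted p = 0.087), Oas2 −1.93 (adjusted p = 0.13), Oas3 −2.22 (adjusted p = 0.15) and Socs1, the inhibitor of JAK kinases, −1.71 (adjusted p = 0.20). Irf9 had −0.68.

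The macrophage result varied with the tool and the mice. DESeq2 called 62 genes, 0.647% of 9589, and 2 members, Trim30a and Bst2, both lower. Without a filter on low counts edgeR called 2.43% of 17746 genes and 27 members. In that fit the prior degrees of freedom were infinite, against 5.56 with the filter, so its calls are not read as a result. The median over members was −1.38 in pool E5 alone and −0.74 in pool E6 alone, −1.13 with shared barcodes kept and −1.20 without macrophage cluster 15. Markers of other cells also differed. Summed over 12 T and NK cell markers, the level was 33.3 to 273 CPM in macrophages of floxed isotype mice and 11.5 to 28.1 CPM in those of floxed anti-PD-1 mice, and 6 to 12 of the 12 markers were detected per mouse. Without the 2 mice with most of this RNA, floxed isotype mice 2 and 3, the median was −0.79. Macrophage markers were at 13890 to 21517 CPM over all mice. The part of lymphocyte RNA in the result was otherwise not tested.

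Anti-PD-1 in floxed mice went with lower fitted levels in CD8 T cells and fibroblasts as well. In CD8 T cells 30 of 32 tested members were lower (median −0.66), 17 had an unadjusted p under 0.05 beside 466 of 7962 genes, and 0 passed in edgeR. Groups did not overlap for 13 members, namely Ifi204, Ddx58, Oasl1, Oas1a, Irf7, Bst2, Xaf1, Cmpk2, Rtp4, Iigp1, Ifit3, Ifit3b and Ifit1, against 4.8% of all genes. Ifit3 was at 230, 118, 226 and 206 CPM with isotype and 114, 94.5 and 66.5 CPM with anti-PD-1 (−1.03, SE 0.29, adjusted p = 0.78), and Irf7 at 200, 118, 188 and 141 against 103, 66.7 and 66.5 CPM (−0.99, SE 0.31, adjusted p = 0.78). In both genes isotype mouse 2 sat next to the treated mice. Ifi204 was at 74.1, 47.8, 114 and 52.2 against 25.6, 20.4 and 28.1 CPM (−1.55, SE 0.51, adjusted p = 0.78), and no treated mouse reached the lowest isotype mouse. Bst2 was at 402, 291, 379 and 280 against 240, 148 and 218 CPM (−0.70, SE 0.20, adjusted p = 0.78).

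Of the 9 GTPases in these CD8 T cells, 8 had a change between −0.18 and 0.078, and Iigp1 had −0.66 (SE 0.34, edgeR adjusted p = 0.85). Gbp2 had a change of −0.074, Gbp5 of −0.031, Gbp7 of −0.13 and Ifi47 of −0.16 (edgeR adjusted p 0.96 to 0.999), and the signs of the first 3 turned under other hashtag or cell calls. In the narrower CD8 T classes of those 6 calls the members' median was −0.41 to −0.59, and 4 to 8 members had an unadjusted p under 0.05. Macrophage markers were at 497 to 1348 CPM in the CD8 T cells of floxed isotype mice and 319 to 567 CPM in those of floxed anti-PD-1 mice, and monocyte markers at 2042 to 2912 and 1603 to 2267 CPM. Their part in the result was not tested. Ifng itself was at 191, 230, 390 and 439 CPM in CD8 T cells of floxed isotype mice and 1272, 564 and 627 CPM with anti-PD-1 (1.43, SE 0.47, adjusted p = 0.78). Each treated mouse was above each isotype mouse for this ligand.

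In fibroblasts 26 of 33 members were lower with anti-PD-1 in floxed mice (median −0.75), beside 50.6% of all genes, and edgeR gave 12 members and 1016 of 10468 genes an unadjusted p under 0.05. Groups did not overlap, all lower, for 9 members (Isg15, Oasl2, Oasl1, Oas1a, Usp18, Trim30a, Irf7, Ifit3 and Ifit3b) and for 6.91% of genes. Oasl2 was at 157, 105, 72.6 and 50.4 CPM against 30.4, 18.5 and 34.7 CPM (−1.44, SE 0.42, adjusted p = 0.33), and Irf7 at 158, 73.1, 93.2 and 59.7 against 22.4, 22.2 and 31.3 CPM (−1.61, SE 0.57, adjusted p = 0.43). Rsad2 was at 60.2, 20.7, 52.3 and 40.7 against 20.8, 0.528 and 7.83 CPM (−2.47, SE 0.89, adjusted p = 0.44), where the groups overlapped at 20.7 and 20.8 CPM. Iigp1 went the other way at 0.23 and Gbp2 at 0.22. Macrophage markers in these fibroblasts were at 137 to 1288 CPM with isotype and 160 to 283 CPM with anti-PD-1, and their part in the result was not tested.

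Floxed monocytes were split by gene family. With anti-PD-1 13 members were higher and 20 lower (median −0.17, 3 with an unadjusted p under 0.05 beside 584 of 8904 genes, 0 passed in edgeR). All 9 GBPs and IRGs were higher (median 0.43), and all 7 IFIT and OAS genes were lower (median −0.23). The 3 members with an unadjusted p under 0.05 were Irf1, Gbp2 and Gbp4. Irf1, which is in none of these families, had 0.85 (SE 0.35, edgeR adjusted p = 0.70). Gbp2 was at 458, 426, 389 and 478 CPM with isotype and 749, 1000 and 693 CPM with anti-PD-1 (0.95, SE 0.39, adjusted p = 0.70). Gbp4 was at 123, 105, 105 and 99.2 against 139, 286 and 172 CPM (0.93, SE 0.41, adjusted p = 0.70), and Gbp5 at 200, 145, 126 and 138 against 204, 284 and 232 CPM (0.78, SE 0.38, adjusted p = 0.77). Gbp2, Gbp4 and Gbp5 were the members whose treated mice all lay above the isotype mice, as did 2.77% of genes. Ifit3 was at 689, 400, 265 and 444 against 205, 199 and 377 CPM (−0.57, SE 0.46, adjusted p = 0.92) and overlapped.

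The same split of families appeared in other antigen-presenting cells. In cluster 2 all 9 GBPs and IRGs were higher (median 0.37) and all 7 IFIT and OAS genes lower (median −0.65), and in cDC2 all 9 were higher (median 0.60) and 5 of 7 lower (median −0.19). Gbp2 in cluster 2 was at 285, 196, 284 and 204 CPM with isotype and 717, 563 and 151 CPM with anti-PD-1 (1.02, SE 0.34, adjusted p = 0.45), so that anti-PD-1 mouse 4 lay below the isotype mice. Gbp2 in cDC2 was at 97.1, 104, 93.9 and 51.5 against 172, 397 and 110 CPM (1.59, SE 0.54, adjusted p = 0.65), above in all 3 treated mice as for 2.53% of genes. Members with all treated mice below were Ifih1, Ddx58 and Xaf1 in cluster 2 (5.33% of genes) and Irf7 and Bst2 in cDC2 (4.28%). Irf7 in cDC2 was at 530, 280, 276 and 227 against 102, 169 and 150 CPM. In CD8 T cells the GTPases had a median of −0.10 and the IFIT and OAS genes of −1.05, in fibroblasts 0.20 and −1.18, and in macrophages −0.73 and −1.39. The 2 families were set against each other after their values were seen, and the difference between them was not tested. Over all members the medians were −0.31 in cluster 2 (15 with an unadjusted p under 0.05, beside 529 of 6959 genes), 0.12 in cDC2 (4, beside 409 of 6255) and −0.20 in NK cells, with 0 members passing in edgeR.

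**Figure D4:**
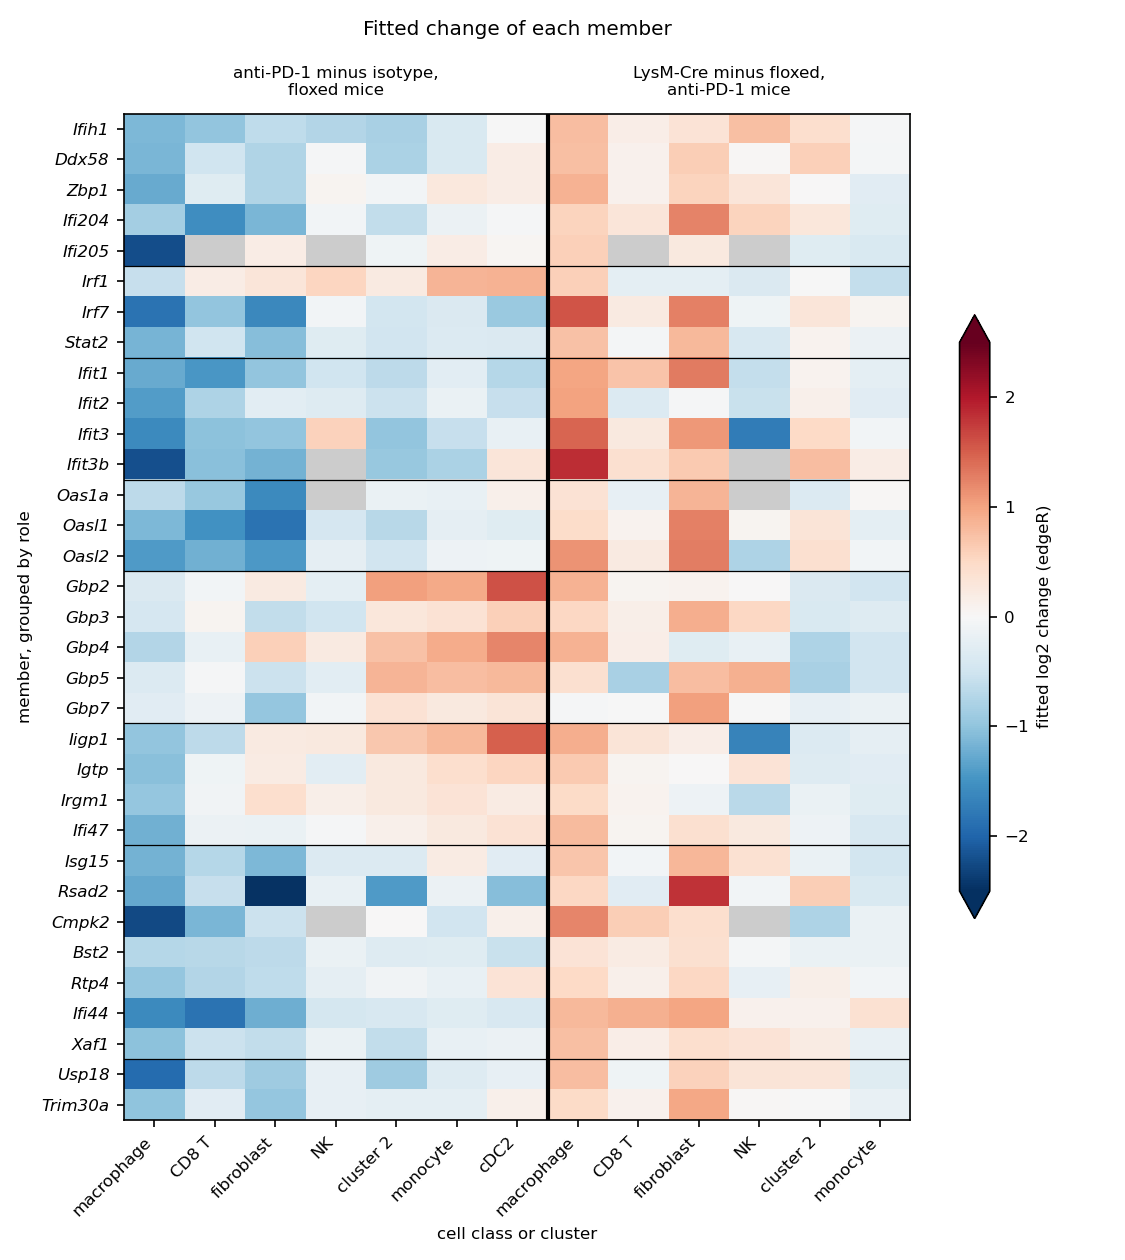
Fitted log2 changes of the members with anti-PD-1 against isotype in floxed mice (7 classes) and with LysM-Cre against floxed under anti-PD-1 (6 classes); grey marks genes not tested. Macrophages are lower for 33 of 33 members in the first comparison and higher for 32 of 33 in the second, while GBPs and IRGs of monocytes are higher in the first.

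The second comparison asks how genotype mattered under anti-PD-1. It uses the same floxed anti-PD-1 mice as the first, so the values are given side by side and are not independent of it. In macrophages 32 of 33 members had a higher fitted level in LysM-Cre mice (median 0.75), 6 with an unadjusted p under 0.05 beside 1174 of 9589 genes, and 0 passed in edgeR. For 5 members (Usp18, Cmpk2, Ifit3, Ifit3b and Ifit1) every LysM-Cre mouse lay above every floxed mouse, as for 3.19% of genes. Ifit3 was at 30.8, 2.36, 27.9 and 32.5 CPM in floxed and 79.2, 56.6, 78.4 and 75.7 CPM in LysM-Cre mice (1.46, SE 0.58, adjusted p = 0.33). Ifit3b was at 4.69, 0, 4.11 and 5.48 against 23.6, 15.5, 13.6 and 17.6 CPM (1.85, SE 0.67, adjusted p = 0.32). The LysM-Cre mice were close to one another in both genes.

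Irf7 was at 61.0, 17.7, 86.3 and 48.5 CPM in floxed and 53.7, 165, 142 and 278 CPM in LysM-Cre mice (1.56, SE 0.57, adjusted p = 0.32), where LysM-Cre mouse 1 overlapped. Trim30a was at 64.3, 49.6, 81.4 and 60.2 against 70.7, 90.1, 95.8 and 98.5 CPM (0.48, SE 0.22, adjusted p = 0.39), Bst2 had 0.33 (adjusted p = 0.47) and Ifi204 0.56 (adjusted p = 0.46). Gbp7 was the 1 member that was not higher (−0.037, adjusted p = 0.99), and its sign turned under several other settings. By role, medians ran from 0.45 for OAS genes to 1.23 for IFIT genes. Of the 61 further pathway genes, read in the same mice, 56 were higher (median 0.51), beside 52.2% of all genes. The members' median was 0.50 in pool E5 alone, 0.81 in pool E6 alone, 0.50 with shared barcodes kept and 0.30 without macrophage cluster 15, whose share is given above. The T and NK marker sum was at 13.6 to 22.2 CPM in LysM-Cre and 11.5 to 28.1 CPM in floxed anti-PD-1 macrophages, so it did not separate these groups.

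Under anti-PD-1 fibroblasts had 29 of 33 members higher in LysM-Cre mice (median 0.61, 3 with an unadjusted p under 0.05 beside 704 of 10468 genes), and for Ifi204, Oasl2, Trim30a and Irf7 the groups did not overlap, as for 7.03% of genes. Oasl2 was at 30.4, 18.5 and 34.7 CPM in floxed and 72.7, 59.9 and 71.0 CPM in LysM-Cre fibroblasts (1.27, SE 0.45, adjusted p = 0.71). Macrophage markers were at 628 to 1684 CPM in these LysM-Cre fibroblasts and 160 to 283 CPM in the floxed ones, and their part in the result was not tested. Medians were −0.25 in monocytes (29 of 33 lower, 0 with an unadjusted p under 0.05), 0.11 in CD8 T cells (23 of 32 higher, 0), 0.0054 in cluster 2 and 0.014 in NK cells, and 0 members passed in edgeR.

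Neutrophils showed large medians that rested on 1 mouse. With anti-PD-1 25 of 25 tested members were lower in LysM-Cre than in floxed mice (median −1.54, 16 with an unadjusted p under 0.05 beside 151 of 2226 genes, 0 of which were called). Floxed anti-PD-1 mouse 3, with 45 neutrophils, had 25110 CPM of members, including 5105 CPM of Isg15 against 160 to 1763 CPM in the other mice. Without it the median was 0.30. The change with anti-PD-1 in floxed neutrophils went from 0.76 to −1.07 without this mouse. The fits without it keep only floxed anti-PD-1 mice 1 and 2, below the minimum of 3 mice per condition. Mouse 2 only just reached the minimum of 20 cells and had 2081 CPM of members. These values show the dependence on mouse 3 and give no direction. In LysM-Cre neutrophils 23 of 25 members were lower with anti-PD-1 (median −0.75), and for Oasl2 and Trim30a the groups did not overlap, as for 0.854% of genes. The members together had 7340, 7316, 5578 and 4043 CPM in isotype mice 1 to 4. With anti-PD-1 they had 5229, 4874, 5090 and 1575 CPM, so mouse 4 was far below the rest. That mouse had 210 neutrophils in cluster 6, the cluster with the lower level, and 85 in cluster 8. The part of this mix was not tested. Leaving out each mouse in turn gave medians of −1.03 to −0.32.

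**Figure D5:**
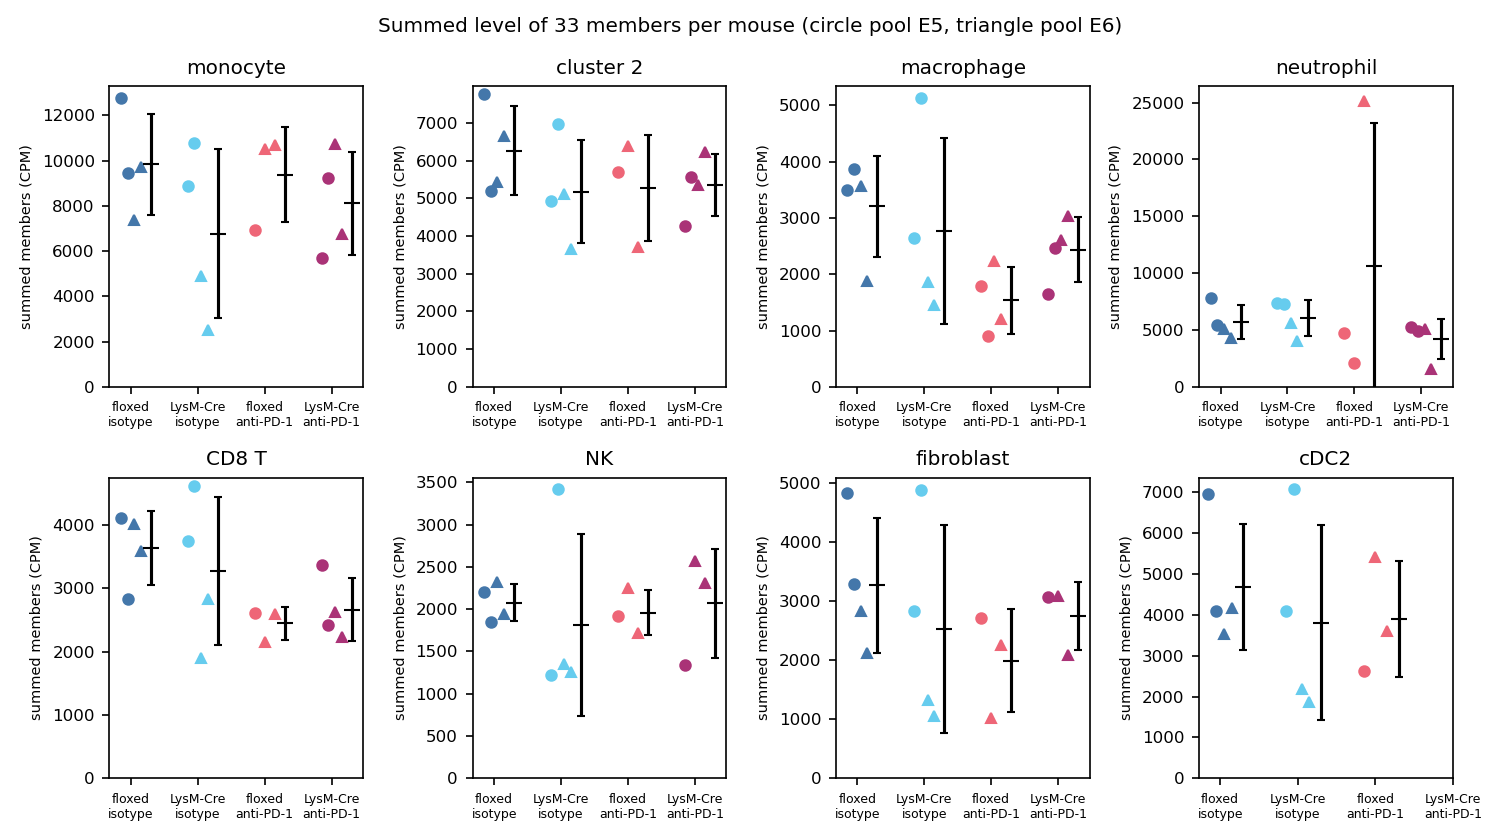
Summed level of the 33 members in CPM per mouse in 8 classes, by condition; circles are pool E5, triangles pool E6, and bars give mean ± SD (cut at 0). Macrophage means with isotype are 3205 in floxed and 2771 in LysM-Cre mice, those with anti-PD-1 are 1537 and 2439, and 1 neutrophil sample stands at 25110.

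The third comparison is genotype with isotype. Monocytes of LysM-Cre mice had lower fitted levels for 33 of 33 members (median −0.56, 5 with an unadjusted p under 0.05 beside 386 of 8904 genes, 0 passed in edgeR). Role medians lay between −0.47 and −0.70. The members together had 12781, 9442, 7378 and 9714 CPM in floxed and 8868, 10773, 4913 and 2513 CPM in LysM-Cre mice 1 to 4, so mice 3 and 4 were low and mice 1 and 2 were within the floxed range. Trim30a was at 321, 307, 229 and 337 against 195, 252, 134 and 130 CPM (−0.73, SE 0.22, adjusted p = 0.96). Ifi204 was at 1034, 877, 619 and 772 against 771, 823, 418 and 284 CPM (−0.55, SE 0.25, adjusted p = 0.96). Iigp1 was at 161, 142, 165 and 190 against 89.4, 140, 72.1 and 5.23 CPM (−1.03, SE 0.54, adjusted p = 0.96), and was the 1 member for which the groups did not overlap, as for 1.49% of genes. The split ran along the pools: the median was −0.12 in pool E5 alone and −1.25 in pool E6 alone. Without monocyte cluster 7 it was −0.48.

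With isotype the other classes had smaller medians. These were −0.32 in macrophages (30 of 33 lower, 0 with an unadjusted p under 0.05), −0.48 in fibroblasts (31 of 33 lower, 3), −0.15 in CD8 T cells (29 of 32 lower, 0), −0.20 in cluster 2 (26 of 33 lower, 1), −0.30 in cDC2 (28 of 33 lower, 1) and −0.12 in regulatory T cells (23 of 33 lower, 0). NK cells had −0.13, neutrophils 0.10 (18 of 25 higher, 0) and cluster 13 0.22 (22 of 26 higher, 3). EdgeR called 0 members in each. LysM-Cre isotype mouse 2 was above and mouse 3 below the class mean in these classes. LysM-Cre isotype mouse 4 was below it too, except in CD8 T cells (0.035) and cluster 13 (0.0062), where it was near the class mean.

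The fourth comparison is anti-PD-1 against isotype in LysM-Cre mice. In macrophages 22 of 33 members were lower (median −0.19, 0 with an unadjusted p under 0.05), with −0.96 in pool E5 alone and 1.02 in pool E6 alone, and 0.54 without LysM-Cre isotype mouse 2. No direction is therefore given for this class. Monocytes had 29 of 33 higher (median 0.29, 4 with an unadjusted p under 0.05), with −0.47 in pool E5 and 1.31 in pool E6. All 9 GBPs and IRGs of monocytes were higher (median 0.73), among them Iigp1 at 89.4, 140, 72.1 and 5.23 CPM with isotype and 131, 296, 326 and 216 CPM with anti-PD-1 (1.61, SE 0.55, adjusted p = 0.83). Isotype mouse 4 was far below the rest for Iigp1. The GTPases were also higher in 9 of 9 cases in cluster 2 (median 0.34) and fibroblasts (median 0.69).

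CD8 T cells of LysM-Cre mice had 25 of 32 members lower with anti-PD-1 (median −0.41, 9 with an unadjusted p under 0.05 beside 706 of 7962 genes, 0 members passed in edgeR). All 7 IFIT and OAS genes were lower (median −0.95), as they were in floxed mice, and the GTPases had 5 of 9 higher (median 0.023). Ifit3 was at 239, 274, 107 and 168 CPM with isotype and 147, 107, 88.4 and 108 CPM with anti-PD-1 (−0.80, SE 0.25, adjusted p = 0.40), with isotype mouse 3 among the treated mice. Ifng was at 72.3, 255, 227 and 166 against 181, 945, 213 and 622 CPM (1.38, SE 0.45, adjusted p = 0.41). Fibroblasts had 28 of 33 members higher (median 0.41, 4 with an unadjusted p under 0.05), cluster 2 had −0.063 (10) and NK cells 0.030.

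The last comparison, the interaction, sets the anti-PD-1 response of LysM-Cre mice against that of floxed mice. It is the difference between the fourth and the first comparison in the same mice, so it is not independent of them. In macrophages 33 of 33 members had a more positive response in LysM-Cre mice, beside 51.0% of all genes (median 1.07). The treatment medians behind it were −1.12 in floxed mice and −0.19 in LysM-Cre mice, where no direction is given. In edgeR 7 members and 596 genes had an unadjusted p under 0.05, and 0 members and 0 of 9589 genes passed. Stat2 had 1.19 (SE 0.47), Trim30a 0.86 (SE 0.30) and Irf7 1.65 (SE 0.78, adjusted p = 0.78 each). Fibroblasts had 31 of 33 more positive (median 1.21, 11 with an unadjusted p under 0.05 beside 443 of 10468 genes), with Oasl2 at 2.03 (SE 0.56). Medians were 0.29 in monocytes, 0.21 in CD8 T cells, 0.22 in cluster 2 and 0.25 in NK cells. Neutrophils had −1.74, which was 0.26 without floxed anti-PD-1 mouse 3, where only floxed anti-PD-1 mice 1 and 2 remain.

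A surface protein offered a partial second readout. The panel of 88 antibodies included Sca1, encoded by the interferon-induced gene Ly6a; other antibodies to interferon-induced proteins were not examined. In macrophages of floxed mice Sca1 made up 13.6%, 13.3%, 16.6% and 8.64% of antibody counts with isotype and 6.62%, 1.96%, 9.31% and 3.78% with anti-PD-1 (−1.07, SE 0.55, edgeR adjusted p = 0.25 over antibodies). The groups overlapped through isotype mouse 4. Ly6a RNA had a change of −1.37 (SE 0.72, adjusted p = 0.44). In fibroblasts of floxed mice the antibody had 0.97 (SE 0.33, adjusted p = 0.089) and Ly6a RNA 0.20, so the protein was higher where 26 of 33 members were lower. In fibroblasts of LysM-Cre mice the antibody had 1.19 with anti-PD-1 (SE 0.33, edgeR adjusted p = 0.22), and there 28 of 33 members were higher. Sca1 in the other classes is not given here.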

How the data were processed

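Single cells of 16 mice were counted in 2 pools. The deposited values are raw UMI counts per gene, hashtag or antibody and barcode, per the file headers. Those headers name Cell Ranger 6.1.2, whereas Cell Ranger 3.0.1 and mm10 come from the submitters' processing notes. Further counting settings were not found in the labels or headers. The authors' antibody table gives each hashtag's condition (it calls floxed mice wildtype and LysM-Cre mice KO, and prints hashtags 8 and 9 with the same tag sequence, although their counts differ).

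Barcodes with at least 500 UMIs, 200 genes and at most 10% mitochondrial UMIs were kept (13914 and 14515). The weaker copy of shared barcodes was then removed (765 and 27 left out). On the rest, HTODemux (Seurat 5.3.0) called 8475 and 8723 singlets, 3729 and 4538 doublets and 945 and 1227 negatives. Singlets were clustered in scanpy 1.11.5 with leidenalg 0.10.2 (2000 variable genes without the interferon genes, 30 components, 15 neighbours, resolution 1.0). Doublets within 1 hashtag remain, and removing those Scrublet scored highest was an alternative. Counts were summed per mouse and class (at least 20 cells, at least 3 mice per condition) and all conditions of a class entered 1 model with pool as a covariate in edgeR 4.0.16 (R 4.3.3), with TMM scaling, the filterByExpr filter and the quasi-likelihood F test. DESeq2 1.42.0, other filters and other cell calls were alternatives, and the script was tested on simulated data. UMI totals per mouse ran from 1594838 to 28923364.

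The members, role groups and the 74 other pathway genes (71 in the files) were chosen with earlier results of these data known. Values per mouse are given for the 6 most abundant members and the 2 largest and 2 smallest changes among those with a mean of at least 10 CPM, and for members singled out after their values were seen, such as those whose groups did not overlap. Promoters of 7 members had no entry, and 4 had over 1, of which the first was used.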

Additional observations from a re-analysis of the deposited data

Results flagged for a closer look

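Dixon's test for 1 sample apart from the rest of a group of 4 mice was run on 173 groups, and 15 passed its 95% critical value; chance passes about 1 in 20. None of these values was removed. LysM-Cre isotype mouse 2 was the high mouse in 5 of them. It had 3423 CPM of all members in NK cells and 9459 CPM in cluster 13, Isg15 at 525 CPM and Ifi205 at 47.2 CPM in macrophages, and Ifi205 at 33.3 CPM in fibroblasts. Floxed isotype mouse 4 was the low mouse in 4, with Irf7 at 105 CPM, Isg15 at 103 CPM and Ifi205 at 9.09 CPM in macrophages and Gbp2 at 84.4 CPM in fibroblasts. LysM-Cre anti-PD-1 mouse 1 stood apart with Isg15 at 86.8 CPM in macrophages (low), Bst2 at 296 CPM in CD8 T cells (high) and Ifit2 at 122 CPM in neutrophils (high). The others were LysM-Cre anti-PD-1 mouse 4 with 1575 CPM of all members in neutrophils, LysM-Cre isotype mouse 3 with Gbp5 at 18.8 CPM in CD8 T cells, and LysM-Cre isotype mouse 1 with Oasl2 at 483 CPM in neutrophils.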

How the results depend on the processing

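The summed level of a class stayed within its spread between mice in 64 of 64 values under other settings and 146 of 146 with a mouse left out; the unnamed clusters were recounted only as a mean over cells. The order of close classes did change: without Scrublet doublets fibroblasts (2052 CPM) came below macrophages (2341 CPM). Of the medians over members, 404 stayed within that spread and 20 moved under other settings, and 557 stayed and 6 moved when a mouse was left out. With 2 mice per condition in a pool, pool E5 alone gave 0.27 for genotype with isotype in CD8 T cells and 0.48 in NK cells, −0.96 for treatment in LysM-Cre macrophages and −0.47 in LysM-Cre monocytes, and in neutrophils 0.27 for genotype with anti-PD-1, −0.86 for treatment in floxed mice and 0.093 for the interaction. Pool E6 alone gave −0.67 for genotype with isotype in CD8 T cells, −0.73 in NK cells and −1.25 in monocytes. For treatment in LysM-Cre mice E6 gave 0.38 in cluster 2, 1.02 in macrophages, 1.31 in monocytes and 0.60 in NK cells, and for the interaction 0.76 in CD8 T cells, 0.65 in cluster 2, 2.07 in fibroblasts, 1.80 in macrophages, 0.99 in monocytes and 0.82 in NK cells. Leaving out each mouse in turn gave −0.45 to 0.54 for treatment in LysM-Cre macrophages (highest without LysM-Cre isotype mouse 2), −0.72 to 0.090 for genotype with isotype and −0.076 to 0.76 for the interaction in NK cells. In neutrophils it gave −2.22 to 0.30 for genotype with anti-PD-1, −1.07 to 1.24 for treatment in floxed mice and −2.20 to 0.26 for the interaction, with the end of opposite sign without floxed anti-PD-1 mouse 3. In that fit only floxed anti-PD-1 mice 1 and 2 remain. For treatment in floxed macrophages the same range was −1.43 to −0.88, for genotype with anti-PD-1 in macrophages 0.52 to 1.06 and for genotype with isotype in monocytes −0.87 to −0.26.

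Members called over the contrasts of a class, 0 in the reported fits, were 65 in macrophages, 55 in fibroblasts, 34 in monocytes, 29 in neutrophils, 22 in CD8 T cells, 14 in cluster 2, 7 in cDC2 and 2 in NK cells without a filter on low counts. There the prior degrees of freedom were infinite, against 4.79 to 12.6 with the filter. A member counts once for each contrast in which it was called. Genes in general were called there too, 2.43% of 17746 for treatment in floxed macrophages. That share is not given for the other comparisons, so the counts do not set members apart from other genes. These are counts of members, as are the next ones. DESeq2 called 2 in macrophages, pool E6 alone 1 in NK cells, and leaving out 1 mouse 0 to 2 in cluster 2 (2 without floxed anti-PD-1 mouse 4). The cause was not tested.

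Single members turned sign where the fitted change was near 0. For treatment in floxed CD8 T cells, Gbp7 was 0.11 with MULTIseqDemux, 0.019 with interferon genes kept in clustering, 0.036 at resolution 0.5 and 0.087 at 5% mitochondrial UMIs. Gbp2 was 0.11 with MULTIseqDemux and 0.24 at 5%, and Gbp5 was 0.22 with MULTIseqDemux, 0.21 without Scrublet doublets, 0.34 with interferon genes kept, 0.24 at resolution 0.5, 0.25 at 5% and 0.25 with shared barcodes kept. For treatment in floxed fibroblasts, Iigp1 was −0.24 and Gbp2 −0.081 in pool E6, and Ifi47 0.091 at 5%. For genotype with anti-PD-1 in macrophages, Gbp7 was 0.28 in pool E6, 0.076 without Scrublet doublets, 0.023 with interferon genes kept and 0.026 at resolution 0.5. For treatment in floxed macrophages without the 2 mice with most lymphocyte RNA, Gbp7 was 0.052 and Gbp5 0.17, and Gbp5 was 0.023 with MULTIseqDemux. In pool E5, genotype with isotype in monocytes gave 0.0016 for Bst2, 0.14 for Gbp7 and 0.045 for Oas1a. For genotype with anti-PD-1 in neutrophils E5 gave 0.65 for Isg15, 0.64 for Rsad2, 0.014 for Oasl2, 0.90 for Gbp2, 0.59 for Ifit2 and 0.28 for Bst2.

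Over the fits that left out 1 mouse, the single members that turned sign ranged as follows. In floxed CD8 T cells Gbp2 ranged from −0.32 to 0.26 and Gbp5 from −0.14 to 0.15. In floxed fibroblasts Iigp1 ranged from −0.052 to 0.55, Gbp2 from −0.10 to 0.57, Ifi47 from −0.47 to 0.12 and Ifi205 from −0.36 to 0.95. In macrophages Gbp7 ranged from −0.27 to 0.17 for genotype with anti-PD-1 and Gbp5 from −1.13 to 0.031 for treatment in floxed mice, and in monocytes Oas1a from −0.38 to 0.11 for genotype with isotype. For genotype with anti-PD-1 in neutrophils, Isg15 ranged from −1.96 to 0.51, Rsad2 from −2.85 to 0.18, Gbp2 from −2.98 to 0.87, Rtp4 from −1.38 to 0.055 and Bst2 from −1.09 to 0.43. No paired analysis was possible because mouse numbers only name the mice and pair none of them across conditions; the pool was a term of every fit. Settings chosen after seeing the data were shared barcodes kept, leaving mice out of the class levels, leaving out macrophage cluster 15, monocyte cluster 7 or the 2 mice with most lymphocyte RNA, and the Scrublet threshold.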

Other observations

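Several small classes stayed outside the comparisons between conditions because too few mice had 20 of their cells. Per 10000 UMIs of a cell, the median was 16.8 member UMIs in mature dendritic cells (113 cells) and 8.09 in B cells (100 cells), both below cDC2, and 4.90 in mast cells or basophils. Cluster 13, led by Cd4, had a median of 30.8.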
